A study of Mus musculus with 10 samples.

Results

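The regions described here are the broad XBP-1 peaks of fed mouse liver, defined as peaks of 1500 bp or more in the peak list that the authors called on the pooled Fed libraries. They numbered 1215 of 84544 peaks, or 1.44% of that list, and the median length was 1757 bp, against 298.0 bp for the 83329 shorter peaks. Length in the pooled Fed list chose the regions, so their length, height and fold enrichment in that list, and their presence in the Fed libraries that were pooled, are given as a description with no test.

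XBP-1 occupancy was mapped by chromatin immunoprecipitation and sequencing (ChIP-seq) with an antibody against the spliced form (Xbp-1s) in livers of C57BL/6J mice, with the aim of finding targets in liver metabolism. There were 4 groups of 2 libraries each: fasted wild-type mice (Fasted), fed wild-type mice (Fed), mice with a liver-specific knockout of Ern1 (Ern1-LKO) and the wild-type control mice of that knockout (WT). The labels give neither the length of the fast nor the feeding state of the Ern1-LKO and WT mice, and they do not name the Cre line. They do not say whether libraries of a group came from separate animals, so each permutation p below measures only the spread between these libraries, which may be technical. Peak lists hold no transcript levels, so neither the loss of Ern1 nor the liver origin of the chromatin could be checked against marker genes.

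Fasted and Fed lists were called against 1 input library of wild-type liver DNA and Ern1-LKO and WT lists against another, so groups were compared only within each pair. Kept tags (M, mega) numbered 8.38M and 9.62M in Fasted, 17.40M and 7.77M in Fed, 12M and 4.34M in Ern1-LKO and 14.07M and 9.18M in WT libraries. The number of peaks did not follow the tags. Fasted lists held 53973 and 19237 peaks, Fed lists 82975 and 47357, Ern1-LKO lists 698 and 30796, and WT lists 6258 and 30327. Replicate 1 of Ern1-LKO and replicate 1 of WT therefore stand apart as short lists, and results that rest on them are given with and without them.

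XBP-1 is a basic leucine zipper factor of the unfolded protein response, the program by which cells adjust the folding capacity of the endoplasmic reticulum (ER). When unfolded proteins accumulate, the ER sensor encoded by Ern1 (IRE1 alpha) removes a short intron from Xbp1 mRNA, and the spliced mRNA is translated into the active factor, which induces chaperones, ER-associated degradation and secretory transport. In liver, XBP-1 is also known for its part in lipid synthesis. CpG islands, stretches of DNA dense in CG dinucleotides, mark the promoters of many housekeeping and developmental genes.

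Some of the broad regions lay at promoters of a few strongly enriched ER genes, and others at promoters of genes for transcription factors, chromatin proteins and signalling proteins. The following promoters, picked by hand to show where the ER element and the GC box lie, are examples of both kinds and not a sample of the regions. They are the 250 bases before the RefSeq gene start (GRCm38.p6, the assembly behind mm10), 5′ to 3′ on the strand of the gene. In the first 3, capitals mark the ER stress response element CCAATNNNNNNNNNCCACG on either strand, a known binding site of ATF6 and XBP-1 together with NF-Y. Hspa5 encodes the chaperone BiP, Hsp90b1 the chaperone GRP94 and Syvn1 the ubiquitin ligase HRD1. Their sequences lie at chr2:34771840-34772089 on the plus strand, chr10:86705445-86705694 on the minus strand and chr19:6046326-6046575 on the plus strand.
Hspa5: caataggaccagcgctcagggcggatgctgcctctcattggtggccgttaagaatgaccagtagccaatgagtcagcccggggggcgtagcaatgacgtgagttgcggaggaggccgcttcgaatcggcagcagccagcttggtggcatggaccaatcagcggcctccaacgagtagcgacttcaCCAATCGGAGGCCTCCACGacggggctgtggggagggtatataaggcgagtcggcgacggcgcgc
Hsp90b1: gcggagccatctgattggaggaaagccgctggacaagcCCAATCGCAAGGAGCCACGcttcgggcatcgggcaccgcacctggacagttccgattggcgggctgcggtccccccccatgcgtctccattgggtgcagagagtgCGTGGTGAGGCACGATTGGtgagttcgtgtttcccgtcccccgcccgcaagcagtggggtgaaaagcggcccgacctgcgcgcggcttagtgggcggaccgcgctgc
Syvn1: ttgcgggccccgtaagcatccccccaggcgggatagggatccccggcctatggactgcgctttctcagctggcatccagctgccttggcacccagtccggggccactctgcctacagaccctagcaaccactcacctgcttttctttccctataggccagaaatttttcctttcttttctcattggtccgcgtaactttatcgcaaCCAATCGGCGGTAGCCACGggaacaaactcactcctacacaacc
In the next 4, capitals mark the GC box GGGCGG on either strand, the core site of the SP and KLF factors, and none holds the ER element in these bases. Irs2 encodes an insulin receptor substrate, Cebpb a leucine zipper factor of acute-phase and stress programs, Foxo3 a forkhead factor restrained by insulin signalling and Kmt2a a histone H3 lysine 4 methyltransferase. Their sequences lie at chr8:11008930-11009179 on the minus strand, chr2:167688665-167688914 on the plus strand, chr10:42276696-42276945 on the minus strand and chr9:44881290-44881539 on the minus strand.
Irs2: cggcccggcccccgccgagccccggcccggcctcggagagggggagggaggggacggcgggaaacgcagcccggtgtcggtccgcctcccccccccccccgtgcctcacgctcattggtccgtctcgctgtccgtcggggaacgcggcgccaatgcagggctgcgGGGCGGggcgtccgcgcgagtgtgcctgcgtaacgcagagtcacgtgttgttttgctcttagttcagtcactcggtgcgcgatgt
Cebpb: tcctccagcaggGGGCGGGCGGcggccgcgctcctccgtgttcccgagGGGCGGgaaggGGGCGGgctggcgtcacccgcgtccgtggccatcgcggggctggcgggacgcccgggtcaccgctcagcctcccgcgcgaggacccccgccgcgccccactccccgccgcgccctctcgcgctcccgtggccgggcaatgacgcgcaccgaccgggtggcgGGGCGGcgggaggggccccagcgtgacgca
Foxo3: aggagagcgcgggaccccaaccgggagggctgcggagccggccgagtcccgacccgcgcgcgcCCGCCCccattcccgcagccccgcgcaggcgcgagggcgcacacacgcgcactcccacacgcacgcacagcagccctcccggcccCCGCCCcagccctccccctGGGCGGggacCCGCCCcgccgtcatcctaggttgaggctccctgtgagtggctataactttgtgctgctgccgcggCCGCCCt
Kmt2a: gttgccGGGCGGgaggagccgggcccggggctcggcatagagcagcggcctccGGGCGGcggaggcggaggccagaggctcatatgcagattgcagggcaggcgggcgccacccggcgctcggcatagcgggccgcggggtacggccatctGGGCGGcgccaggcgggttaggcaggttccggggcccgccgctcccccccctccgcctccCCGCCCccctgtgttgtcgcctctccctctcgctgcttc
The ER element occurred once before Hspa5 and Syvn1, starting 65 and 44 bases before the gene start, and at 2 places before Hsp90b1. The 250 bases held 22 CG dinucleotides before Hspa5, 25 before Hsp90b1 and 12 before Syvn1. They held 34 before Irs2, 41 before Cebpb, 31 before Foxo3 and 29 before Kmt2a. Other regulators had fewer: 22 before Cebpa, which had no GC box there, and 18, 12 and 27 before the 3 RefSeq starts of Brd2, of which 1 had a GC box. The ER genes were not without GC boxes, with 1 before Hspa5, 2 before Hsp90b1 and 0 before Syvn1. The summit of the broad region lay 60 bp from the gene start at Hspa5, 148 bp at Hsp90b1, 150 bp at Syvn1, 194 bp at Irs2, 61 bp at Cebpb, 192 bp at Kmt2a and 1280 bp at Foxo3.

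Most broad regions sat at genes. A gene end, meaning either end of a protein-coding gene, lay in or within 1 kb of 962 of the 1215 regions (79.2%), against 23.1% of all pooled Fed peaks. Another 229 (18.8%, against 48.9% of all peaks) had their summit inside a gene, and 24 (1.98%, against 28.0%) had neither. A RefSeq gene start lay inside 782 regions (64.4%, against 12.0% of all peaks). Of these, 169 (21.6%) held starts on both strands, against 11.6% of all peaks that held a start. Whether such starts pointed away from each other was not checked, and a longer peak can hold more starts. By length, this share was 3.98% under 500 bp, 11.5% from 500 to under 1000 bp and 16.7% from 1000 to under 1500 bp. The share at a gene end was 13.6% for peaks under 500 bp, 52.1% from 500 to under 1000 bp, 74.0% from 1000 to under 1500 bp, 79.1% from 1500 to under 2000 bp and 79.4% at 2000 bp or more. It thus grew with length up to about the chosen limit and little beyond it. The window runs from any base of a peak, so length alone raises these shares. Measured from the summit, a gene end lay within 1 kb of 65.9% of broad regions, and no such share over all peaks is given here.

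Broad regions were of moderate fold enrichment. Fold enrichment here is the authors' ratio of the tag pileup at the summit to the local background, and its median was 7.88 in broad regions and 4.34 in shorter peaks. The fold was under 3 in 4 regions, 3 to under 5 in 63, 5 to under 10 in 917, 10 to under 15 in 185 and 15 or more in 46. The most enriched peaks of the list were mostly not broad: of 175 peaks with a fold of 20 or more, 23 reached 1500 bp. Broad peaks were still more frequent among these 175 than in the whole list, where they made up 1.44%. The median length of the 175 peaks was 1082 bp.

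The longest region, 5399 bp at chr10:80147832-80153230, had its summit inside Midn, which encodes midnolin, a protein that brings nuclear proteins to the proteasome. Its fold was 17.9. The second, 4958 bp long with a fold of 6.9, lay in Plec, which encodes the cytoskeletal linker plectin. The third, 4864 bp at chr17:34118182-34123045, covered the end of Brd2, a BET protein that reads acetylated histones, and of the neighbouring H2-DMa. With a fold of 39.7 it was also the most enriched broad region.

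The other long regions lay at Hic1 and Smg6 (4228 bp), Irs2 (3894 bp), the Hedgehog receptor Ptch1 (3607 bp), the kinase inhibitor Camk2n1 (3543 bp), Cxxc5 (3521 bp) and the POU factor Pou3f1 (3504 bp). Their folds ranged from 5.6 at Pou3f1 to 11.1 at Cxxc5. A 3935-bp region at chr17:39842999-39846933 covered the annotated 18S ribosomal RNA copy Rn18s-rs5 and no protein-coding gene, and had a pileup of 410 but a fold of 2.2. A neighbour of 1866 bp at chr17:39847026-39848891 had a pileup of 407 and a fold of 2.6. These pileups were close to the 403 at Brd2, while both folds were among the 4 under 3 of all broad regions.

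After Brd2, the highest folds were 36.0 at Fndc3b, 33.2 at Atp2a2, 33.1 at Surf4, 31.4 at Rapgef2, 30.7 at Mtf1 and Yrdc, 30.1 at Hspa5, 27.6 at Nktr, 27.6 at Srsf2 and Mfsd11, and 26.7 at Kctd12. Atp2a2 encodes the calcium pump SERCA2 of the ER membrane, Surf4 a cargo receptor for ER export and Srsf2 a splicing factor. Of the 10 most enriched regions, Brd2 alone was also among the 10 longest. Just inside the length limit lay regions at Prdm8 and Cnksr2 (1501 bp each) and Rbms1 (1500 bp), with folds of 9.6, 7.0 and 5.8. Just outside it lay peaks at Zfp385a (1499 bp), Atg2b and Gskip (1499 bp) and Igf2bp1 (1498 bp), with folds of 8.2, 9.1 and 8.4, so the limit cuts through a continuous range.

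Genes are described next by the length and fold of their longest pooled Fed peak, list by list, and differences between lists were not tested. In all, 1124 of 21896 protein-coding genes (5.13%) had an end within 1 kb of a broad region, and 14460 (66.0%) had an end that close to any pooled Fed peak. The 5.13% thus counts genes with no peak, which makes it a low background for lists with a peak at nearly all genes. Over those 14460, the longest peak of a gene had a median length of 734 bp and a median fold of 6.19. Of the 24 genes for protein folding in the ER, 23 had a peak and 4 had a broad region. The median length of the longest peak was 1202 bp and its median fold 27.6, and in 22 of the 23 genes the fold was 15 or more. Another 15 of these genes had a peak of 1000 to under 1500 bp, short of the limit.

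The 4 ER folding genes with a broad region were Hsp90b1 (1951 bp, fold 24.5), Fkbp2, which encodes a prolyl isomerase (1751 bp, fold 19.6), P4hb, which encodes protein disulfide isomerase (1686 bp, fold 19.5), and Hspa5 (1515 bp, fold 30.1). Genes just short of it were Manf, which encodes a secreted ER stress factor (1435 bp, fold 34.4), Creld2 (1397 bp, fold 36.0) and the BiP cochaperone gene Dnajc3 (1363 bp, fold 34.1). These shorter peaks had higher folds than all 4 broad ones.

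ER-associated degradation had a broad region at 2 of 20 genes, Syvn1 (1636 bp, fold 21.1) and Aup1 (1609 bp, fold 5.4). The translocon list had 1 of 24, Sec11c, a signal peptidase subunit (1515 bp, fold 21.3). The ER-Golgi list had 1 of 31, Sec16a, a scaffold of ER exit sites (1823 bp, fold 18.0). N-glycosylation had 3 of 27, Stt3b, a catalytic subunit of oligosaccharyltransferase (1962 bp, fold 21.9), Dpm1, a subunit of dolichol-phosphate mannose synthase (2304 bp) and Dpagt1 (1535 bp, fold 6.7). Together, 11 of 126 genes of these 5 lists (8.73%, against 5.13% of all protein-coding genes) had a broad region. Over genes with a peak of any length the count was 11 of 122, against 1124 of 14460, a smaller excess. Of the 11, 8 had a fold of 15 or more. Of the sensors and other arms of the unfolded protein response, Cebpb was the 1 gene of 20 with a broad region (2796 bp, fold 9.4).

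Chromatin regulators and immediate early genes were the lists with the highest counts. Of 25 chromatin and BET regulators, 11 (44.0%, against 5.13% of all protein-coding genes) had a broad region, with a median longest peak of 1436 bp and a median fold of 8.24 over the 24 with a peak. Besides Brd2 they included Arid1b, a subunit of the BAF remodeller (3041 bp, fold 13.1), Kmt2a (2544 bp, fold 11.9), Ncoa2, Ncoa3, Chd4, Chd7, Kat6b, the acetyltransferase Crebbp and the Polycomb methyltransferase Ezh2. Apart from Brd2, no gene of this list had a fold of 15 or more. Over genes with a peak of any length, the count of broad regions was 11 of 24, against 1124 of 14460.

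Of 22 immediate early genes, which respond within minutes to growth signals, 9 (40.9%, against the same 5.13%) had a broad region. These were Klf10 (3123 bp, fold 10.2), the AP-1 genes Fos, Jun, Junb and Jund, the mRNA decay factors Zfp36, Zfp36l1 and Zfp36l2, and the antiproliferative gene Btg1. Their folds ranged from 4.1 at Fos to 11.2 at Zfp36l1. Fos, with a broad region of 1752 bp, thus had a lower fold than any of the 4 broad ER folding genes. All 22 genes had a peak of some length, so 9 of 22 also compares with 1124 of 14460 genes with a peak.

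Among liver lists, 6 of 21 hepatocyte transcription factors had a broad region, among them Cebpa (3409 bp, fold 6.6), Nr2f6 (3190 bp, fold 5.3), the fasting-response receptor Ppara (1875 bp, fold 5.8), Foxa3 (1809 bp, fold 6.6) and Klf15 (1601 bp, fold 9.0). In the list of glucose output, 5 of 18 genes did, and these were all regulators rather than enzymes: Irs2 (3894 bp, fold 8.0), Irs1 (2962 bp, fold 8.8), Foxo3 (2780 bp, fold 7.8), Foxo1 (1889 bp, fold 6.8) and Creb1 (1684 bp, fold 7.8). Lipogenesis had 3 of 24, Fasn, the fatty acid synthase (1966 bp, fold 8.8), Elovl6, a fatty acid elongase (1659 bp, fold 5.9), and Acly, which makes cytosolic acetyl-CoA (1560 bp, fold 6.5). The clock list had 3 of 18, Nfil3 (1987 bp), Clock (1739 bp) and Npas2 (1569 bp).

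The hosts of noncoding RNAs had a broad region at 1 of 18 genes, Dleu2 (2201 bp). No broad region lay at a gene of cholesterol synthesis and uptake (0 of 20), bile acid metabolism (0 of 15), secreted hepatocyte proteins (0 of 20), cytosolic ribosomal proteins (0 of 24), the respiratory chain (0 of 24) or non-parenchymal cell markers (0 of 22). Over all protein-coding genes the share was 5.13%, so a count of 0 or 1 in lists of this size is near it. The ribosomal and respiratory lists had a peak at 23 and 24 of their 24 genes, with median longest peaks of 811 and 647 bp. Only 11 of 20 genes for secreted hepatocyte proteins had a peak, with a median fold of 3.37.

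Gene families, chosen after their values had been seen, are given as counts only. Broad regions lay at 15 of 44 Fox genes, 8 of 19 Sox genes, 6 of 17 Klf genes, 4 of 10 Fzd genes, 4 of 7 Socs genes, 3 of 3 Nsd genes and 4 of 4 Tsc22d genes, but at 0 of 77 Rpl and Rps genes, 2 of 99 Cyp genes and 0 of 1110 Olfr genes. The share over all protein-coding genes was 5.13%. A pooled Fed peak of any length lay at 41 of the Fox, 19 of the Sox and 73 of the Rpl and Rps genes. Only 37 of the Cyp and 21 of the Olfr genes had one, so most genes of these 2 families had no peak that could be broad. Socs3, a feedback inhibitor of cytokine signalling, had a region of 3040 bp with a fold of 7.4.

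**Figure D1:**
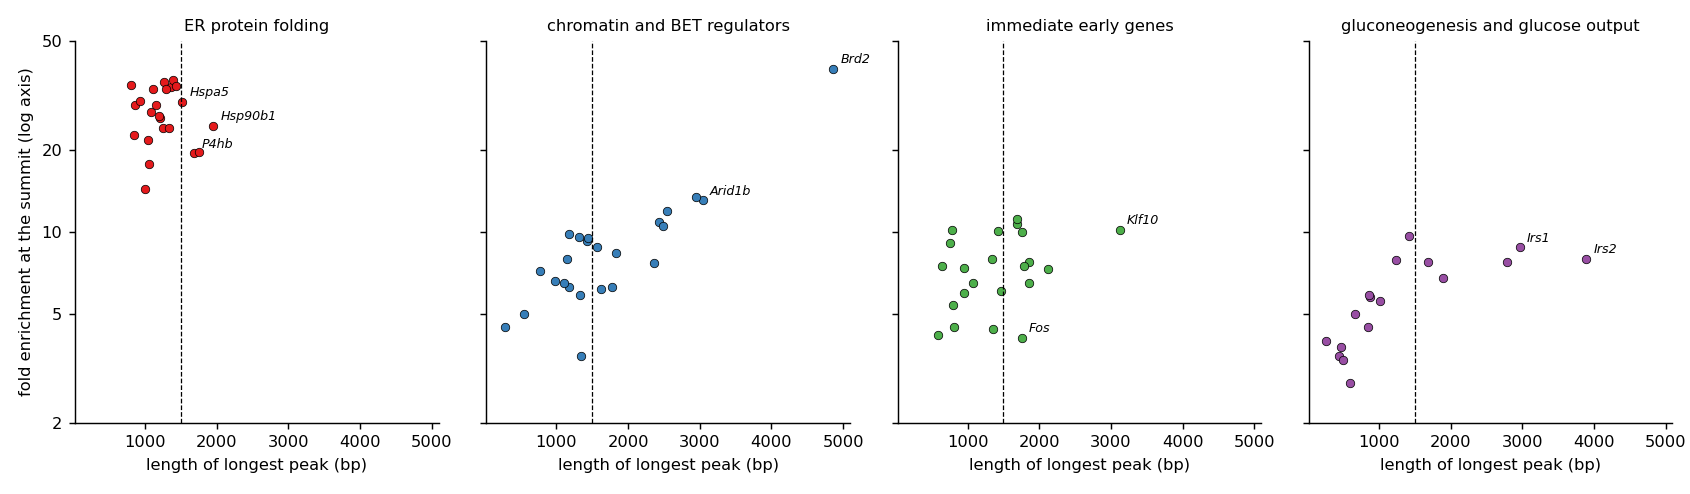
Length (bp) and fold enrichment (log axis) of the longest pooled Fed peak of each gene in 4 lists, 1 point a gene, with the 1500 bp limit dashed. ER folding genes lie high and mostly left of the line, with a median fold of 27.6, while chromatin, immediate early and glucose output genes extend to the right at lower folds, apart from Brd2 at 39.7.

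The broad regions reached farther into the gene than away from it. Over the 782 regions with a RefSeq gene start, the median extent was 660 bp upstream and 1117 bp downstream of the start, and 71.4% were longer downstream. In the 613 regions with starts on 1 strand the medians were 618 and 1173 bp, and 77.0% were longer downstream. In the 169 with starts on both strands they were 872 and 923 bp, and 50.9% were longer downstream. Peaks of 500 to under 1000 bp over a start, which do not meet the limit, were also mostly longer downstream (80.5%), with medians of 218 and 489 bp.

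The tilt recurred in the long lists of libraries that the rule did not use. At 1000 bp downstream of the start, a peak covered 315 of the 613 regions in Fasted replicate 1, and at 1000 bp upstream 92. In Fasted replicate 2 the shares downstream and upstream were 13.7% and 4.57%. They were 33.9% and 10.1% in Ern1-LKO replicate 2 and 40.1% and 12.4% in WT replicate 2. In the short lists they were 0.653% and 0 in Ern1-LKO replicate 1 and 2.61% and 1.96% in WT replicate 1. At this distance all 6 libraries outside the Fed group had a higher share downstream. In WT replicate 1 this rested on 16 against 12 regions, and closer to the start it turned round, with 9.62% at 200 bp downstream against 10.9% at 200 bp upstream and 5.87% against 7.34% at 400 bp. The regions were still aligned and chosen on Fed peaks, which were themselves longer downstream.

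**Figure D2:**
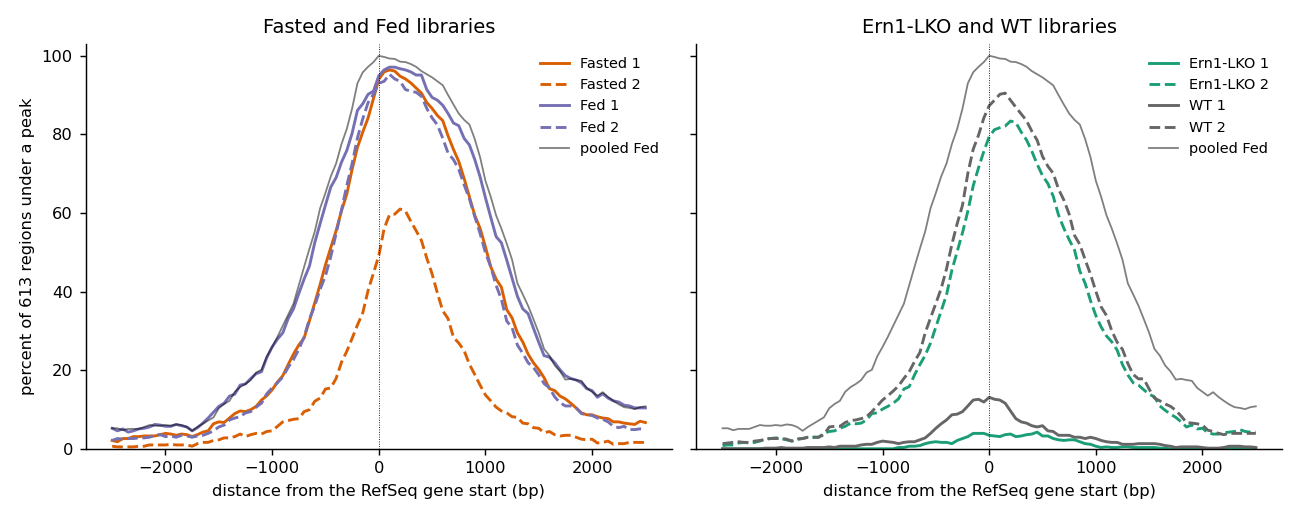
Share of 613 broad regions with RefSeq gene starts on 1 strand that lay under a peak of each library, by distance from the gene start (bp, positive into the gene). Most curves peak at or just downstream of the start and fall more slowly into the gene, at 51.4% in Fasted replicate 1 and 33.9% in Ern1-LKO replicate 2 at 1000 bp downstream.

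The DNA under the starts was rich in CG. Over 1119 RefSeq promoters (250 bases before to 50 after the start) whose start lay in a broad region, the median G+C content was 69.3%, against 63.0% for the 11437 with a start in a shorter peak and 47.7% for the 20295 in no pooled Fed peak. The median ratio of observed to expected CpG was 0.87 in broad regions, 0.78 in shorter peaks and 0.22 outside peaks. A ratio of 0.6 or more was found at 88.2%, 76.2% and 10.2% of these promoters. G+C content rose with length class, with medians of 58.3% under 500 bp, 63.3% from 500 to under 1000 bp, 68.0% from 1000 to under 1500 bp, 69.3% from 1500 to under 2000 bp and 69.7% at 2000 bp or more. The input libraries entered through the authors' peak calls, and whether base composition bears on peak length through library preparation was not tested.

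Motifs were counted on both strands of these 300 bases. The GC box GGGCGG was in 81.2% of promoters in broad regions, 69.4% in shorter peaks and 35.7% of all 32851 promoters. The ETS motif CCGGAAG went the other way among bound promoters, with 8.76% in broad regions, 18.4% in shorter peaks and 8.86% of all promoters. TATAAA was in 4.65%, 5.18% and 13.6%. The core XBP-1 motif TGACGTG was in 2.86% of promoters in broad regions, 2.99% in shorter peaks and 2.01% of all promoters. The longer TGACGTGG, which contains it, was in 0.804%, 0.988% and 0.676%. These windows cover only a small stretch of each region, and the summit lay in such a window in 183 of the 1215 regions. The shares thus say nothing of sites elsewhere in a region.

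The ER element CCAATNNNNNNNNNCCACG was in 5 promoters of broad regions (0.447%), 14 of shorter peaks (0.122%) and 39 of all promoters (0.119%). The 5 were those of Hspa5, Hsp90b1 and Syvn1, printed above, and those of Hnrnpa3 and Gm39859, which lie in 1 region. Of the 27 promoters of ER folding genes in the table, 8 held it. By list, the median G+C content and CpG ratio of promoters were 66.0% and 0.83 for ER folding genes, 72.3% and 0.88 for chromatin regulators, 64.2% and 0.80 for immediate early genes, 57.3% and 0.59 for hepatocyte transcription factors and 57.2% and 0.47 for the glucose output list.

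**Figure D3:**
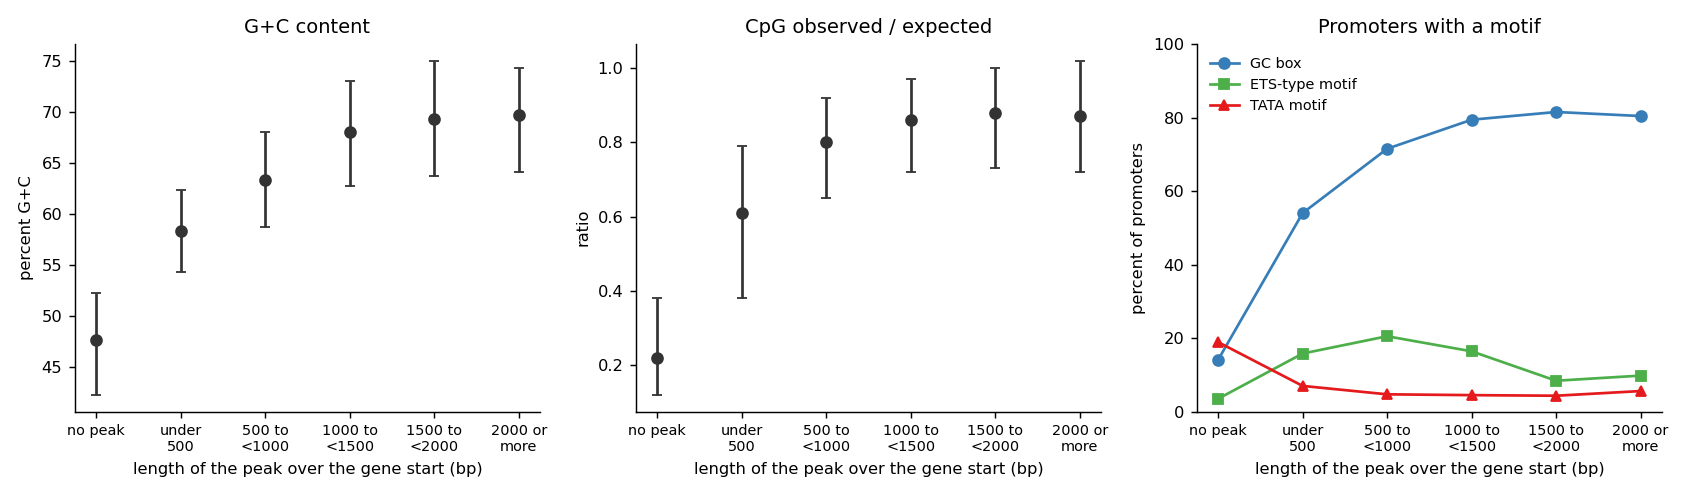
RefSeq promoters by the length of the pooled Fed peak over the gene start: percent G+C and CpG observed over expected (median with quartiles), and the percent of promoters with each of 3 motifs. G+C content climbs to a median of 69.7% at 2000 bp or more, and the ETS-type motif peaks at 500 to under 1000 bp, with 20.5%, against 8.40% and 9.79% in the broad classes.

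Nearly all broad regions also had a peak in the longest list of each other group. Fasted replicate 1 had a peak in 1215 of 1215 regions, against 50.5% of all pooled Fed peaks, and Fasted replicate 2 in 988 (81.3%, against 19.5%). Fed replicate 1 had a peak in 1215 and Fed replicate 2 in 1213, against 70.4% and 48.7% of all peaks, but these libraries made up the list, so nothing is read from their counts. Ern1-LKO replicate 2 had a peak in 1193 (98.2%, against 28.1%) and WT replicate 2 in 1207 (99.3%, against 29.9%). In the short lists, Ern1-LKO replicate 1 had a peak in 165 (13.6%, against 0.779%) and WT replicate 1 in 337 (27.7%, against 3.43%). A long region also offers more bases to overlap. Such sharing was not particular to broad regions. Of peaks of 1000 to under 1500 bp, 99.4% had a peak in Fasted replicate 1 and 64.6% in Fasted replicate 2. Ern1-LKO replicate 2 had a peak in 93.3% of them and WT replicate 2 in 95.9%.

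The summit of the region, a single base, lay inside a peak in 98.8% and 61.2% of regions in the Fasted, 6.58% and 89.3% in the Ern1-LKO and 18.3% and 95.4% in the WT libraries (replicates 1 and 2 in turn). Over all pooled Fed peaks these shares were 48.0% and 18.0%, 0.515% and 25.3%, and 2.65% and 27.5%. Among strong peaks, with −log10 q of 20 or more in the pooled Fed list, the summit of 1039 broad regions lay inside a peak in 67.6% in Fasted replicate 2, 93.1% in Ern1-LKO replicate 2 and 98.6% in WT replicate 2. For 10650 strong peaks under 1500 bp these shares were 52.2%, 80.9% and 88.5%. The broad and shorter strong peaks were not matched in strength, with median −log10 q of 39.0 and 31.0.

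Most broad regions also had a peak in Fasted livers. Fasted libraries had a peak in 90.7% ± 13.2 of the regions and Fed libraries in 99.9% ± 0.116 (SD, n = 2 each), a difference of -9.26 percentage points that came from Fasted replicate 2. Without Fasted replicate 2 the difference was 0.0823 points. Since the Fed libraries chose the regions, the difference was not tested. No region lacked a peak in both Fasted libraries, whereas 48.4% of all pooled Fed peaks did, and 988 had a peak in both, against 18.4%.

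Ern1-LKO libraries had a peak in 55.9% ± 59.8 of the regions and WT libraries in 63.5% ± 50.6 (SD, n = 2 each). The difference of -7.65 points was smaller than the spread between replicates (exact two-sided permutation test over libraries, p = 0.67, where 2 against 2 cannot give less than 0.33). Without the 2 short lists, the remaining libraries differed by -1.15 points. The mean share of a region's bases under a peak was 2.17% and 59.9% in Ern1-LKO libraries and 6.55% and 67.3% in WT libraries, a difference of -5.89 points (exact two-sided permutation test, p = 0.67). Without the 2 short lists it was -7.41 points. In the authors' pooled lists the Ern1-LKO peaks overlapped 1096 regions (90.2%) and the WT peaks 1091 (89.8%), against 14.7% and 13.5% of all pooled Fed peaks.

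**Figure D4:**
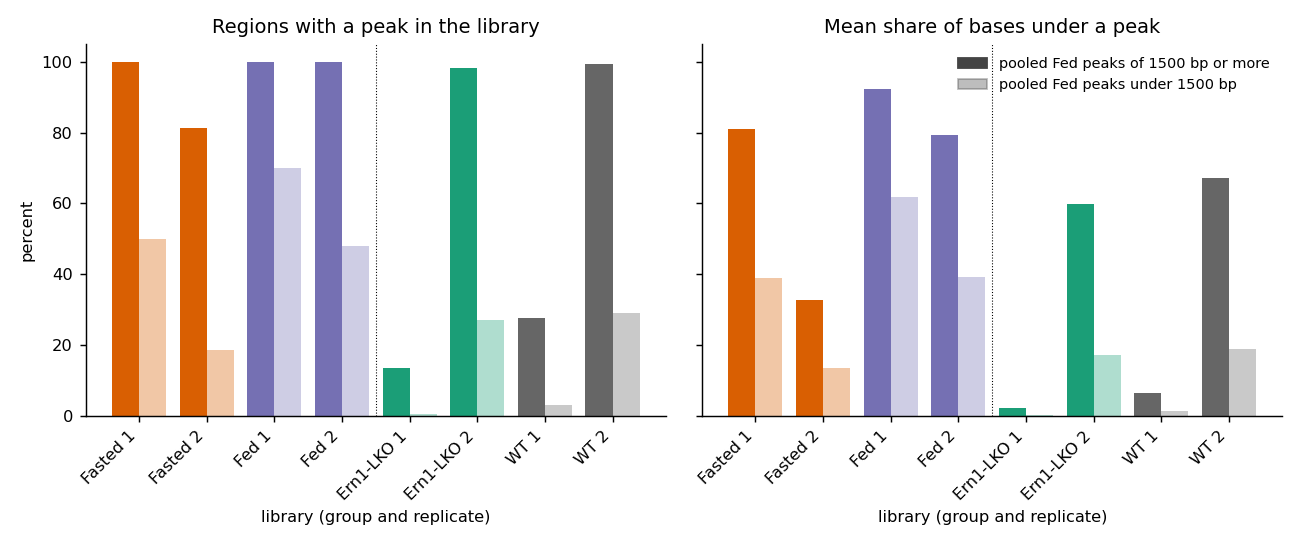
Percent of pooled Fed peaks with a peak in each library (left) and mean percent of their bases under a peak (right), for regions of 1500 bp or more (solid bars) and shorter peaks (pale bars). In each library the solid bar exceeds the pale one, and Ern1-LKO replicate 1 and WT replicate 1 are low for both, at 13.6% and 27.7% of broad regions.

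A peak in 8 of 8 libraries was present in 108 broad regions (8.89%, against 0.486% of all pooled Fed peaks). A peak was present in 7 libraries in 263 regions, in 6 in 633, in 5 in 190, in 4 in 18, in 3 in 2 and in 2 in 1. A peak in Fasted replicate 1, Ern1-LKO replicate 2 and WT replicate 2 was present in 1188 (97.8%, against 20.5%). Regions at Klhdc7b (2 libraries, fold 4.0), F12 (3 libraries, fold 3.5) and at Hyal1 and Naa80 (3 libraries, fold 3.9) were the least shared. These 3 were named after their values had been seen.

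The longest regions with a peak in all 8 libraries lay at Brd2, Irs2, the nuclear receptor Nr2f6, Klf10, Rreb1, Klf13, the DNA methyltransferase Dnmt3a, Rhof, Bicra and Zc3h4. Brd2 had folds of 77.8 and 60.5 in Fasted, 52.2 and 92.8 in Fed, 31.7 and 103.2 in Ern1-LKO and 37.1 and 78.4 in WT libraries. By −log10 q its peak ranked 3 and 2 in the Fasted lists, 2 and 1 in the Fed lists, 1 and 1 in the Ern1-LKO lists and 2 and 2 in the WT lists. It was thus among the top 3 peaks of each of the 8 libraries, in both genotypes. Irs2 had folds of 13.1 and 8.3 in Fasted, 7.3 and 9.8 in Fed, 6.1 and 24.8 in Ern1-LKO and 7.0 and 20.6 in WT libraries.

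A peak in both WT libraries and in neither Ern1-LKO library was present in 2 regions (0.165%, against 0.240% of all pooled Fed peaks), a share near the background. One of them, at Sec14l2 (1523 bp), had peaks that ranked 451 and 16045 in the WT lists. The reverse pattern was present in 0 regions, and in 0 of all pooled Fed peaks.

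Breadth itself recurred less than presence, though a list with few broad peaks can overlap only few regions. A peak of 1500 bp or more overlapped 463 and 23 regions in the Fasted, 720 and 408 in the Fed, 0 and 143 in the Ern1-LKO and 0 and 217 in the WT libraries. The difference of Ern1-LKO minus WT libraries, -3.05 percentage points, was within their spread (exact two-sided permutation test, p = 1). The lists held 545 and 24 peaks of that length in Fasted, 1 and 171 in Ern1-LKO and 0 and 249 in WT libraries. Of these peaks, 84.6% and 95.8% in Fasted, 0 and 83.6% in Ern1-LKO and 87.1% in WT replicate 2 lay over a broad region. Both Fed libraries had a peak of 1500 bp or more in 287 regions (23.6%), 1 of them in 554 (45.6%) and neither in 374 (30.8%). A region was split into several peaks in 34.4% and 24.9% of cases in the Fasted, 37.6% and 36.3% in the Fed, 1.40% and 44.6% in the Ern1-LKO and 6.34% and 45.1% in the WT libraries.

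Another pooled list also had a peak of 1500 bp or more in 357 regions (29.4%): 343 in the pooled Fasted, 42 in the pooled Ern1-LKO and 56 in the pooled WT list. The pooled Fasted, Ern1-LKO and WT lists held 380, 47 and 59 peaks of that length. Of these, 90.3%, 89.4% and 94.9% lay over a broad region. In 26 regions all 3 other pooled lists had such a peak. Among the longest of these were Unc45b (3423 bp), the histone methyltransferase Nsd1 (3331 bp), Cpeb2 (3244 bp), Zswim6 (3073 bp), Arid1b (3041 bp), Klf13 (2862 bp), Irf2bp2 (2684 bp), Cdk13 (2498 bp) and Ncoa2 (2493 bp). Unc45b had 92.3% of its bases under a peak in Fasted replicate 2, where the mean over all broad regions was 32.6%. Over the 1215 regions, the covered length had a rank correlation (Spearman) of 0.84 between Ern1-LKO replicate 2 and WT replicate 2 and of 0.87 between Fasted replicate 1 and Fed replicate 2. Regions share a library and differ in length, which alone gives a correlation, so these values describe these lists.

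Since the lists differed in length, each library was also taken at its 698 highest peaks by −log10 q, the length of the shortest list. The list of Ern1-LKO replicate 1 holds just 698 peaks, so it enters whole. Of the 698 peaks, 184 and 161 lay over a broad region in the Ern1-LKO libraries, against 70 and 122 in the WT libraries. The Ern1-LKO libraries were both above the WT libraries, with a mean of 24.7% ± 2.33 against 13.8% ± 5.27 (SD, n = 2 each). The difference of 11.0 points had p = 0.33 in an exact two-sided permutation test, the smallest p that 2 against 2 can give, so the test could not have passed a 0.05 threshold. It was 7.23 points without WT replicate 1, and 5.59 points between the replicate 2 libraries alone, without either short list. The counts were 126 and 97 in Fasted and 84 and 104 in Fed libraries, which overlapped. This measure was chosen after the data had been seen. The 698 peaks of Ern1-LKO replicate 1 had a median length of 232 bp, against 788, 447 and 778 bp for the top peaks of Ern1-LKO replicate 2 and of WT replicates 1 and 2.

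**Figure D5:**
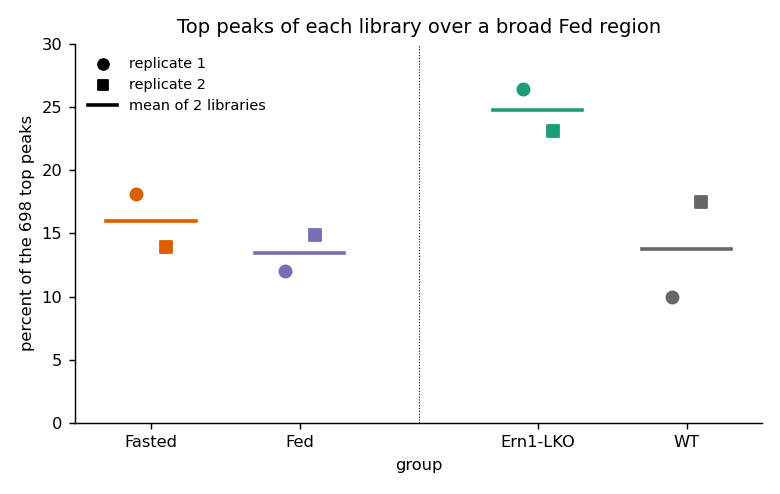
Percent of the 698 highest peaks of each library that lay over a broad Fed region, 1 point a library, with a line at the mean of 2 libraries. The Ern1-LKO libraries, with a mean of 24.7%, lie above the WT libraries, with a mean of 13.8%, and Fasted and Fed libraries overlap.

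Regions among the top peaks of both libraries of 1 group and neither of the other are named, chosen after their values had been seen. Their part in the difference between Ern1-LKO and WT top peaks was not counted. Among the 698 top peaks of both Ern1-LKO and of neither WT library were 34 broad regions (2.80%, against 0.145% of all pooled Fed peaks). Such an excess over all peaks was not particular to this pattern. Among the top peaks of all 4 Ern1-LKO and WT libraries were 31 broad regions (2.55%, against 0.164%). In both Fasted and neither Fed library there were 23 (1.89%, against 0.0934%), and in the reverse 18 (1.48%, against 0.198%). Of the 34, the 5 longest lay at Ncoa2, the kinase gene Dyrk1a, Anp32b, the corepressor gene Cbfa2t3 and the repressor gene Bcl6. Others of the 34 lay at Ctcf, Crebbp, Tet3, Clock and Tgfbr1. Each peak of Ern1-LKO replicate 1 is among its top 698, so ranks are compared between the replicate 2 lists, which are of like length. Ncoa2 ranked 186 in Ern1-LKO replicate 2 and 1000 in WT replicate 2. Crebbp ranked 235 in Ern1-LKO replicate 2 and 1041 in WT replicate 2. The pattern that chose these regions sets the order of such ranks. Without the 2 short lists, 80 broad regions (6.58%, against 0.494% of all pooled Fed peaks) were among the 698 top peaks of Ern1-LKO replicate 2 and not of WT replicate 2.

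The opposite pattern held for 15 broad regions (1.23%, against 0.187%), which included P4hb, Sec16a, Cltc, the clathrin heavy chain gene, Yap1, Pim1 and Kmt2e. Without the 2 short lists it held for 42 (3.46%, against 0.465%). P4hb ranked 2758 in Ern1-LKO replicate 2 and 193 in WT replicate 2, with no peak in Ern1-LKO replicate 1. Sec16a ranked 3003 in Ern1-LKO replicate 2 and 167 in WT replicate 2, again with no peak in Ern1-LKO replicate 1. The pattern itself sets the order of these replicate 2 ranks, and not all secretory genes had the pattern. Hspa5 ranked 370 in Ern1-LKO replicate 2 and 67 in WT replicate 2, but 2 in Ern1-LKO replicate 1 and 15 in WT replicate 1. Its folds were 18.8 and 17.0 in Ern1-LKO libraries and 27.0 and 35.9 in WT libraries. Hsp90b1 ranked 24 in Ern1-LKO replicate 2 and 26 in WT replicate 2. Both chaperone genes also had a peak in Ern1-LKO replicate 1. Kmt2a ranked 10 in Ern1-LKO replicate 2 and 108 in WT replicate 2, with folds of 17.7 and 77.2 in the 2 Ern1-LKO libraries against 14.3 and 46.3 in the 2 WT libraries.

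Of the 24 broad regions with no protein-coding gene, 12 had another RefSeq gene within 1 kb, among them the microRNA genes Mir193a, Mir132 and Mir212, and Mir9-1. One of the rest, at chr14:115040260-115042509 (2250 bp), had a peak in all 8 libraries and ranked 48 in Ern1-LKO replicate 2 and 432 in WT replicate 2, with folds of 11.8 and 46.2 in Ern1-LKO libraries and 3.3 and 25.5 in WT libraries. Mir17hg, the host of the miR-17-92 cluster, begins 1881 bp beyond it. Another, at chr14:19415632-19418538 (2907 bp), had the lowest fold of all, 1.9, with a pileup of 212. By chromosome, broad regions numbered 117 on chromosome 11 and 16 on chromosome X, or 72.7 and 16.6 per 1000 protein-coding genes. As shares, chromosome 11 held 9.63% of broad regions against 8.68% of all pooled Fed peaks, and chromosome X 1.32% against 1.01%.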

How the data were processed

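Immunoprecipitated and input libraries of 10 samples were sequenced, and 12 peak lists were used, 1 for each of 8 libraries and 1 for each pooled group. Per the submitters' processing notes, the build was mm10 and the tools were MACS2 2.2.1, Bowtie2 2.2.5, FastQC 0.11.3 and bcl2fastq. The headers of the deposited files name MACS 2.1.1.20160309 instead, keeping 1 tag per position with q limited to 0.05. Per the file headers, a peak carries its length, the signal (tag pileup) at its summit, a fold ratio of that pileup over the local background, and −log10 q, all made by the authors. They served only to describe, rank or filter peaks within a list.

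From the lists, peaks were called shared where they overlapped by 1 bp or more, which favours long regions, so summits and covered bases are also given. Genes were taken from RefSeq GRCm38.p6 (21896 protein-coding genes), which in this table gives no strand; an end may be a 3′ end. Starts, strands and sequences came from a RefSeq promoter table of 32851 promoters, which holds 17491 of the protein-coding genes. Sequence under summits outside these promoter windows was not analysed here. The planned contrasts used exact two-sided permutation tests over libraries. The intersection code was tested on simulated intervals. The regions and the 20 gene lists were chosen with earlier results of these data known.

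Named genes were the 10 longest and 10 most enriched regions, up to 10 present in WT or Ern1-LKO libraries alone, up to 10 broad in other pooled lists, 3 on each side of the limit and up to 4 members of a gene list, the longest first. Further members were named to complete a count. A few members that this rule would name, and 1 gene list, are not reported here. Python 3.11.15 with numpy 2.4.6, pandas 2.3.3, scipy 1.17.1 and matplotlib 3.10.9 was used. Depth is given as kept tags, and no reads were analysed.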

Additional observations from a re-analysis of the deposited data

How the results depend on the processing

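The 1215 broad regions became 4762 with a limit of 1000 bp, 310 with 2000 bp and 417 in the list of Fed replicate 2 alone, and 816 in that of Fed replicate 1. The 108 regions with a peak in all 8 libraries became 274 at 1000 bp, 30 at 2000 bp, 52 with the summit inside a peak, 0 with 50% of bases covered, 23 at −log10 q of 10 and 16 among the 698 top peaks per library. Leaving out 1 library gave 108 to 314, the highest without Ern1-LKO replicate 1 and 163 without WT replicate 1, and leaving out both short lists gave 983. The share at a gene end was 75.3% at 1000 bp, 89.8% within 5 kb, 65.9% from the summit and 64.4% for a RefSeq start inside. The 51 listed genes with a broad region became 40 to 59 under 3 other rules.

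Ern1-LKO minus WT, as the share of broad regions with a peak, was -7.65 points and turned to 5.60 among the 698 top peaks (p = 0.33, exact permutation test) and to 0.412 in the authors' pooled lists. Leaving out 1 library gave -50.0 to 34.7, higher than 0 without Ern1-LKO replicate 1 (34.7) or WT replicate 2 (28.1). The covered share, -5.89, turned to 0.958 among the 698 top peaks and ran from -36.3 to 24.5 without 1 library, higher than 0 without Ern1-LKO replicate 1 (22.9) or WT replicate 2 (24.5). Under each of the 10 other settings run, the share of top peaks over a broad region was higher in Ern1-LKO than in WT libraries. The difference was 3.15 to 17.4 points. Not all of these settings could have turned its sign. Both Ern1-LKO libraries lay above both WT libraries, so leaving out libraries could change only its size. It was 5.59 points without both short lists. Among the settings that could turn it, it was 12.5 with top peaks by fold and 12.2 with 300 top peaks. With limits of 1000 and 2000 bp it was 17.4 and 3.15. Fasted minus Fed, -9.26, became -36.5 with 50% of bases covered and ran from -18.6 to 0.0823 without 1 library.

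With the replicate block, the differences of -7.65, -5.89 and 11.0 for Ern1-LKO minus WT and the -9.26 for Fasted minus Fed are the same by construction. For Ern1-LKO minus WT the exact permutation test gave p = 0.50, the smallest 2 pairs can give. Same-numbered libraries deviated together in covered bases for Ern1-LKO and WT (correlation 0.70 over regions) and not for Fasted and Fed (-0.17), but nothing in the labels makes a number more than a name. The cause of these shifts was not tested. Each short list had more kept tags than the other library of its group, and in any list a missing peak does not show that XBP-1 was absent.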
